A study of Mus musculus with 17 samples.

Results

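10 genes of glucose use and lactate release were followed through 17 mouse RNA-seq libraries. The glucose transporter gene Slc2a1, 5 enzyme genes of glycolysis (Hk1, Hk2, Pfkp, Aldoa and Pkm), the phosphofructokinase regulator gene Pfkfb3, the lactate dehydrogenase gene Ldha, the lactate exporter gene Slc16a3 and the transcription factor gene Hif1a were taken by symbol. They matched 11 of the 55491 gene rows of each count table, because Aldoa has a second row; that row held at most 4 counts in any B cell library and at most 16 in any BMDC library, and it was not tested. All 10 genes passed the filter on low counts in both cell types.

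The study prepared splenic B cells and bone marrow dendritic cells (BMDC) from KPC mice, which model pancreatic cancer. The cells were kept with MSA2+IPI-549, with MSA2 alone, or untreated (Control); MSA2 is a small-molecule agonist of the innate immune adaptor STING, and IPI-549 (eganelisib) inhibits the lipid kinase PI3Kγ. The BMDC series holds 2 MSA2+IPI-549, 3 MSA2 and 3 Control libraries, and the B cell series holds 3 libraries of each. Every library carries the genotype label WT, although the study's design names KPC mice. The titles, and not the treatment label, which is Control for every sample, gave the groups. Neither dose nor time is given, and no group received IPI-549 without MSA2. The labels do not say that the replicates came from separate mice, so the p-values may measure a partly technical spread.

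Glycolysis splits glucose into pyruvate. Hexokinases trap glucose in the cell as glucose-6-phosphate, phosphofructokinase commits it to breakdown, and PFKFB3 makes fructose-2,6-bisphosphate, the activator of phosphofructokinase. Lactate dehydrogenase A turns pyruvate into lactate, which MCT4, the product of Slc16a3, carries out of the cell. HIF-1α, the product of Hif1a, drives many of these genes, and activated dendritic cells and macrophages are known for a rapid rise of glycolysis.

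Hk2, Pfkp and Pfkfb3 are the genes whose levels rose in both treated BMDC groups, so their promoters are shown first, from 250 bases before to 50 bases after the start site, as RefSeq gives them on GRCm38.p6. All lie on the minus strand and are written 5′ to 3′, with capitals for ACGTG or GCGTG on either strand, the core letters of the HIF response element (CACGT and CACGC are the same letters read on the other strand). Hk2 is shown from chr6:82774405-82774704, Pfkp from chr13:6648722-6649021, and Pfkfb3 from its distal start at chr2:11553880-11554179 and from a start inside the gene at chr2:11502041-11502340.
Hk2: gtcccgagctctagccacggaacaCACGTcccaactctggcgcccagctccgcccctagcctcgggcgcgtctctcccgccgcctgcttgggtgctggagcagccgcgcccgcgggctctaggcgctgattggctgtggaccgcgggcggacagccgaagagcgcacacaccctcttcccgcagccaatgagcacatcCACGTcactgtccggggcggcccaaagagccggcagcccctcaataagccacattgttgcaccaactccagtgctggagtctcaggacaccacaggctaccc
Pfkp: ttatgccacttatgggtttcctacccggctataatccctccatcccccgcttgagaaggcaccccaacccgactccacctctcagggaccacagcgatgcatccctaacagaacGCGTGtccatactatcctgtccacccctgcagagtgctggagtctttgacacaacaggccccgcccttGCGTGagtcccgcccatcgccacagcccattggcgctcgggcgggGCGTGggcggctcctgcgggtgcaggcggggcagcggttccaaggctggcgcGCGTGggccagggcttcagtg
Pfkfb3 distal: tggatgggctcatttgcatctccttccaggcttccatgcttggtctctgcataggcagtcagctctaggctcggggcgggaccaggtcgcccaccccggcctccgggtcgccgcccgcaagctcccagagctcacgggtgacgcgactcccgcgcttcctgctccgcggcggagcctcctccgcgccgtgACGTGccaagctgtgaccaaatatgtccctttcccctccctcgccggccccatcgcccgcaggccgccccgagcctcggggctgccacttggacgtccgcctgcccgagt
Pfkfb3 internal: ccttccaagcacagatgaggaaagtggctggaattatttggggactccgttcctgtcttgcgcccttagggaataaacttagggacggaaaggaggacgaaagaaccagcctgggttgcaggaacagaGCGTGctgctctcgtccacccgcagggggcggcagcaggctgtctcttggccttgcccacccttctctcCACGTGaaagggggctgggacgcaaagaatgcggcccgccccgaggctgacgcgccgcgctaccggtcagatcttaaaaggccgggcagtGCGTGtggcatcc
Counted from the start site, the Hk2 promoter held the letters at -226 and -52 and the Pfkp promoter at -136, -68, -23 and 29. The distal Pfkfb3 promoter held them at -60. RefSeq lists 16 promoters for the 10 genes, and 13 of them held ACGTG or GCGTG, against 43.8% of all 32851 promoters. ACGTG alone was in 11 of the 16, against 19.6% of all promoters. The Aldoa promoters at chr7:126799205-126799504 and chr7:126799129-126799428 overlap, and the same ACGTG site is counted in both. The E-box CACGTG, which contains ACGTG, was in 3 of the 16, those of Hif1a, Ldha and internal Pfkfb3, against 7.15% of all. These are matches of letters in a fixed window. They do not show binding, and the 16 promoters have GC contents between 51.3% and 73.3%, against a median of 52.7% over all promoters.

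The libraries held between 34760025 and 73166643 counts in BMDC and between 41093440 and 51433008 in B cells. Cxcl10, an interferon-induced chemokine gene, was higher in every treated library than in every Control library of the same cell type. The 12 B cell markers summed to between 8747 and 9528 CPM in B cells with MSA2+IPI-549, 4376 to 4907 CPM with MSA2 and 8700 to 9252 CPM in Control. In BMDC the 13 dendritic cell markers summed to between 5778 and 6046 CPM with MSA2+IPI-549, 5396 to 6234 CPM with MSA2 and 4686 to 5284 CPM in Control. The 15 monocyte and macrophage markers were higher than these, at 18512 to 19125 CPM with MSA2+IPI-549, 16390 to 19555 CPM with MSA2 and 20181 to 22363 CPM in Control. The BMDC libraries thus carried much message of these monocyte and macrophage markers. The lists hold different genes, so their sums do not measure shares of cells. The dendritic sum does not set BMDC apart from B cells, since it was 6059 to 6264 CPM in Control B cells. Of its 13 markers, 8 were higher and 5 lower in Control BMDC than in Control B cells. CPM, the usual depth-scaled count, was computed on library totals scaled by TMM (trimmed mean of M values), within a cell type unless stated otherwise.

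Untreated BMDC carried far more message for most of the pathway than untreated B cells. In Control libraries, 8 of the 10 genes were higher in BMDC than in B cells and 0 were lower, where 39.3% of all genes tested were called higher and 40.6% lower (edgeR, Benjamini-Hochberg adjusted p under 0.05). The median log2 difference of the 10 genes was 2.02, against -0.07 over all genes. Slc16a3 differed most, at 144, 140 and 126 CPM in Control BMDC, against 2.20, 1.26 and 0.744 CPM in Control B cells, on a scale set over all 17 libraries (log2 difference 6.58, 95% interval 6.09 to 7.07, adjusted p = 1.07e-14). The lactate exporter message was thus plentiful in every BMDC library and scarce in Control B cells, where it had 34 to 115 counts per library.

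Among the enzymes, the platelet-type phosphofructokinase gene Pfkp had the next largest difference, with 482, 454 and 512 CPM in Control BMDC, against 81.5, 69.3 and 68.4 CPM in Control B cells (log2 difference 2.72). Pkm, the pyruvate kinase gene of the last energy-yielding step, differed by 2.56, Ldha by 2.48 and the aldolase gene Aldoa by 2.31 on the log2 scale. Hk2, the inducible hexokinase, differed by 1.74, Hk1, the housekeeping hexokinase, by 1.01, and Hif1a by 0.81. Slc2a1 and Pfkfb3 did not pass the test. Slc2a1, which encodes the glucose transporter GLUT1, had a log2 difference of 0.19 (95% interval -0.10 to 0.47). Pfkfb3 had 31.4, 30.9 and 35.7 CPM in Control BMDC and 31.9, 30.7 and 35.1 CPM in Control B cells, a log2 difference of 0.01 (95% interval -0.19 to 0.20) whose sign depends on the scaling. The calls therefore covered Hk1, Hk2, Pfkp, Aldoa, Pkm, Ldha, Slc16a3 and Hif1a, but neither the uptake gene nor the gene for the fructose-2,6-bisphosphate step. The cell types were counted as separate library series, so cell type and library series cannot be told apart, and in bulk RNA fewer expressing cells and less RNA per cell cannot be told apart either.

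**Figure D1:**
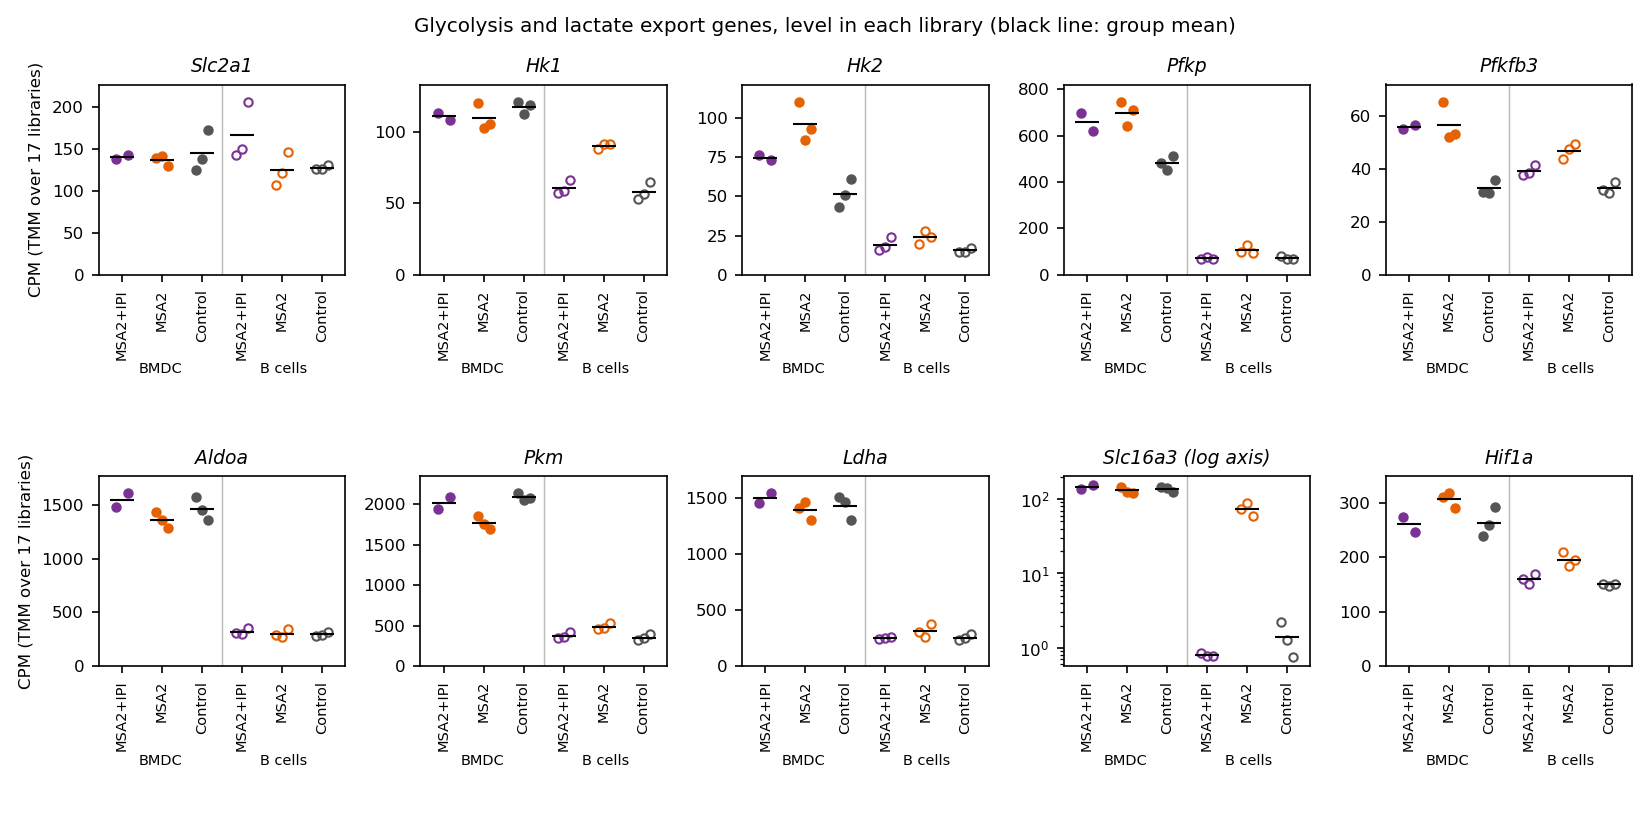
Level of each of the 10 genes in each library, in CPM scaled over all 17 libraries. Filled points are BMDC, open points B cells, and black lines group means; Slc16a3 is on a log axis. Hk2, Pfkp and Pfkfb3 lie above BMDC Control in both treated BMDC groups, while Slc16a3 reaches 59.8 to 89.5 CPM in B cells only with MSA2.

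Per kilobase of annotated exon, Aldoa had the highest mean of the 10 messages in every group, with 502 ± 36.4 CPM per kb in Control BMDC and 101 ± 7.27 CPM per kb in Control B cells (SD, n = 3 each). Ldha and Pkm followed in Control BMDC, at 430 ± 32.1 and 418 ± 9.03 CPM per kb. Their SDs overlap, so their order is not resolved. With MSA2 these SDs did not resolve the lead of Aldoa either, since its SD overlapped that of Ldha in BMDC (466 ± 25.6 for Aldoa and 419.7 ± 24.8 CPM per kb for Ldha) and those of both Pkm and Ldha in B cells. The SDs leave out that the genes were measured in the same libraries, and the order within each library was not tested. Pfkfb3 was the least abundant in Control BMDC, at 4.32 ± 0.352 CPM per kb, and Slc16a3 in Control B cells, at 0.264 ± 0.139 CPM per kb. The 2 hexokinases differed in rank, since Hk1 stood at 13.8 ± 0.504 CPM per kb in Control BMDC and Hk2 at 8.66 ± 1.5. With MSA2, Hk2 reached 16.2 ± 2.13 CPM per kb in BMDC and Hk1 12.9 ± 1.1 CPM per kb. In CPM without the division by length, these means stood the other way, at 96.5 ± 12.7 for Hk2 and 110 ± 9.56 for Hk1. The CPM SDs overlap, and the length takes in all annotated exons, so the order of Hk1 and Hk2 with MSA2 is not resolved.

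In BMDC with MSA2, Hk2, Pfkfb3 and Pfkp rose and Pkm fell, while Slc2a1, Hk1, Aldoa, Ldha, Slc16a3 and Hif1a did not pass the test. That is 3 higher and 1 lower of 10, where 14.6% of all genes tested were called higher and 13.5% lower. The median log2 fold change of the 10 genes was -0.05, against -0.01 over all genes. Of the 15 monocyte and macrophage markers, 3 rose and 5 fell with MSA2, and of 12 dendritic cell markers tested 5 rose and 2 fell. The part of these markers' cells in the results was not tested.

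Hk2 (chr6:82725025-82774454, minus strand, GRCm38) had 107, 82.8 and 89.2 CPM in BMDC with MSA2, against 41.8, 48.7 and 58.8 CPM in Control BMDC. The lowest MSA2 library lay above the highest Control library. The log2 fold change was 0.90 (95% interval 0.63 to 1.16, adjusted p = 0.000223). Pfkfb3 (chr2:11471433-11554077, minus strand) had 62.9, 49.9 and 50.8 CPM with MSA2, against 30.3, 29.8 and 34.5 CPM in Control, again without overlap. Its log2 fold change was 0.79 (95% interval 0.58 to 1.0, adjusted p = 0.000102). Pfkp (chr13:6579768-6648777, minus strand) had 719, 617 and 684 CPM with MSA2, against 466, 436 and 493 CPM in Control, a log2 fold change of 0.53 (95% interval 0.36 to 0.71, adjusted p = 0.000453). The groups did not overlap for any of the 3 genes, as was so for 20.3% of all genes in this direction. Pfkp shares 748 exon bases with Pitrm1 on the opposite strand, and strand handling is not given in the sources used here. Pitrm1 held at most 3249 counts in any library, while Pfkp held 16418 to 44212 counts in BMDC. In B cells Pitrm1 held 1853 to 2047 counts per library and Pfkp 3101 to 6078, so the margin was smaller there. The part of the shared bases in the Pfkp values was not tested.

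Pkm moved the other way. It had 1793, 1696 and 1629 CPM in BMDC with MSA2, against 2066, 1972 and 2002 CPM in Control. The log2 fold change was -0.24 (95% interval -0.38 to -0.10, adjusted p = 0.018). This call rested on single libraries, since the adjusted p was 0.077 without Control replicate 1 and 0.0642 without MSA2 replicate 3. The log2 fold changes of Aldoa, Ldha and Slc16a3 were -0.11, -0.04 and -0.07 with MSA2, and none of their 95% intervals reached beyond -0.28 or 0.13. Slc2a1 had a log2 fold change of -0.08 (95% interval -0.30 to 0.14) and Hk1 of -0.10 (95% interval -0.26 to 0.05). Hif1a had 300.1, 307 and 279.9 CPM with MSA2, against 232, 250.3 and 282 CPM in Control. Its highest Control library lay within the MSA2 range, and its log2 fold change of 0.21 had an adjusted p of 0.0666, which was 0.0182 without Control replicate 3.

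With MSA2+IPI-549 the same 3 genes were higher than in Control BMDC, and no member was lower, where 7.51% of all genes were called higher and 5.38% lower. Both contrasts use the same Control libraries, so the shared direction is not independent evidence. Pfkfb3 had 53.0 and 54.9 CPM with MSA2+IPI-549, against the Control values above, a log2 fold change of 0.78 (95% interval 0.55 to 1.01, adjusted p = 0.000497). Pfkp had 676 and 601 CPM with MSA2+IPI-549 (log2 fold change 0.46, 95% interval 0.27 to 0.65, adjusted p = 0.00499). Hk2 had 73.9 and 71.0 CPM with MSA2+IPI-549 (log2 fold change 0.54, 95% interval 0.25 to 0.83, adjusted p = 0.0208). All 3 genes lay above every Control library in both MSA2+IPI-549 libraries, as did 23.3% of all genes. The calls of Hk2 and Pfkp did not all survive the loss of a library. For Hk2 the adjusted p was 0.0629 without Control replicate 1, 0.0628 without Control replicate 2, 0.139 without MSA2+IPI-549 replicate 1 and 0.0946 without MSA2+IPI-549 replicate 2. For Pfkp it was 0.0853 without MSA2+IPI-549 replicate 1. The other 7 genes had log2 fold changes between -0.08 and 0.10 against Control, Pkm among them at -0.05 (95% interval -0.21 to 0.11).

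Set directly against MSA2, MSA2+IPI-549 gave 0 calls among the 10 genes in BMDC and 0 over all 14614 genes tested (0% called, edgeR). At an unadjusted p under 0.05, 1594 genes passed, DESeq2 called 156 and limma-voom called 3. Hk2 had 73.9 and 71.0 CPM with MSA2+IPI-549, against 107, 82.8 and 89.2 CPM with MSA2. Its log2 fold change was -0.36 (95% interval -0.65 to -0.06, unadjusted p = 0.022, adjusted p = 0.374). Pkm had 1876 and 2025 CPM with MSA2+IPI-549, against 1793, 1696 and 1629 CPM with MSA2 (log2 fold change 0.19, 95% interval 0.03 to 0.35, adjusted p = 0.374). Hif1a and Aldoa had log2 fold changes of -0.23 (adjusted p = 0.397) and 0.19 (adjusted p = 0.439). Pfkfb3 and Pfkp differed by -0.01 (95% interval -0.24 to 0.22) and -0.08 (95% interval -0.27 to 0.12) between these groups. With 2 libraries in one group, the absence of a call does not show equal levels.

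**Figure D2:**
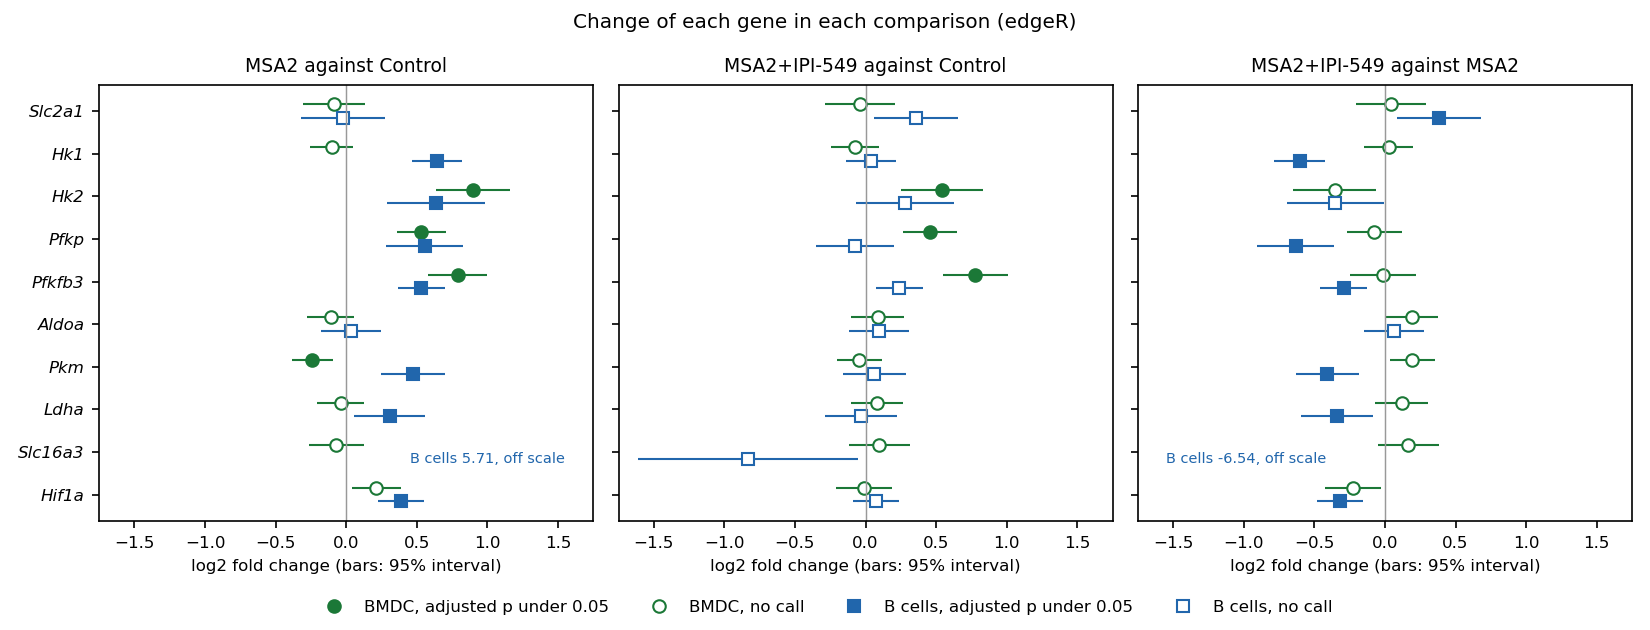
Log2 fold change of each gene with its 95% interval, for BMDC (circles) and B cells (squares). Filled symbols passed an adjusted p of 0.05 in edgeR. Hk2, Pfkp and Pfkfb3 are filled for BMDC in both comparisons with Control; in B cells 8 genes are filled for MSA2 and none for MSA2+IPI-549 against Control, and the Slc16a3 values of 5.71 and -6.54 in B cells are off the scale.

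Most other genes of the pathway had no call in BMDC. Of 28 other glycolysis and lactate genes tested, 5 rose, 5 fell and 18 did not pass with MSA2, where 14.6% of all genes were called higher and 13.5% lower, with a median log2 fold change of -0.12, against -0.01 over all genes. Tigar, whose product removes the fructose-2,6-bisphosphate that PFKFB3 makes, rose by 0.73 (adjusted p = 0.00161). Slc16a1, which encodes the lactate and pyruvate carrier MCT1, rose by 0.60 (adjusted p = 0.000272), and the enolase gene Eno3 by 0.54 (adjusted p = 0.00211). Pfkfb4, a sister gene of Pfkfb3 that also makes fructose-2,6-bisphosphate, fell by 0.53 on the log2 scale (adjusted p = 0.000906). In CPM, Pfkfb4 averaged 18 ± 0.684 in BMDC with MSA2 and 26.0 ± 2.84 in Control (SD, n = 3 each), so that the 2 sister genes moved in opposite directions. Slc16a1 averaged 50.2 ± 3.99 CPM with MSA2 and 33.2 ± 2.66 CPM in Control. Slc16a3 had no call, and Slc16a7, a further carrier gene of the list (MCT2), named after its values were seen, fell by 0.35 on the log2 scale (adjusted p = 0.0394).

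With MSA2+IPI-549, 3 of the 28 genes rose and 1 fell against Control in BMDC, where 7.51% of all genes were called higher and 5.38% lower. Eno3 rose by 0.44 (adjusted p = 0.0246), Slc16a1 by 0.42 (adjusted p = 0.0116) and the glucose transporter gene Slc2a6 by 0.38 (adjusted p = 0.0035). Pfkfb4 fell by 0.36 on the log2 scale (adjusted p = 0.0324). Tigar did not pass the test, with a log2 fold change of 0.29 (adjusted p = 0.252). Of the 7 pentose phosphate genes, which branch off at glucose-6-phosphate, 1 rose and 2 fell with MSA2, all by 0.21 or less on the log2 scale. With MSA2, 14.6% of all genes were called higher and 13.5% lower. With MSA2+IPI-549, 0 of the 7 passed.

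**Figure D3:**
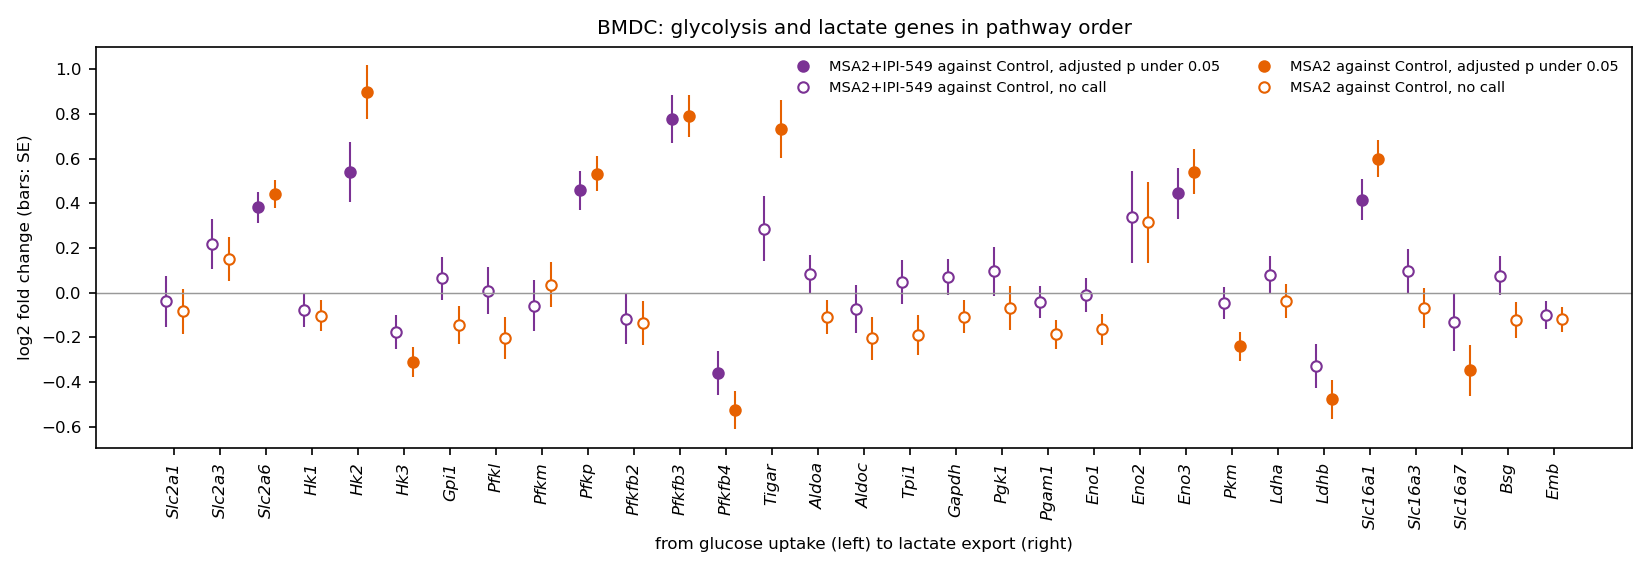
Log2 fold change against Control in BMDC, with its SE, for the glycolysis and lactate genes set in the order of the pathway from uptake to export; purple is MSA2+IPI-549 and orange MSA2. Filled points passed an adjusted p of 0.05. The rises sit at Hk2, Pfkp, Pfkfb3, Tigar, Eno3, Slc2a6 and Slc16a1, and the falls at Hk3, Pfkfb4, Pkm, Ldhb and Slc16a7.

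In B cells, MSA2 was followed by higher levels of 8 of the 10 genes and lower levels of 0, where 24.9% of all genes were called higher and 18.5% lower. The median log2 fold change of the 10 was 0.50, against -0.01 over all genes. Slc16a3 stood far apart. It had 77.3, 93.0 and 61.6 CPM in B cells with MSA2, against 2.30, 1.31 and 0.764 CPM in Control B cells (log2 fold change 5.71, 95% interval 5.07 to 6.35). The other 7 called genes lay between 0.31 and 0.64 on the log2 scale. Slc2a1 and Aldoa did not pass, at -0.02 (95% interval -0.32 to 0.27) and 0.03 (95% interval -0.18 to 0.25).

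These MSA2 libraries also carried the markers of other blood cells. All 12 T cell, 10 NK cell, 15 monocyte and macrophage, 12 neutrophil, 9 erythroid and 8 mast cell and basophil markers rose in them, and all 12 B cell markers fell (median log2 fold change -0.97). Neutrophil markers summed to between 0.573 and 1.02 CPM with MSA2+IPI-549, 1644 to 1715 CPM with MSA2 and 2.38 to 35.2 CPM in Control. Monocyte and macrophage markers summed to between 134 and 149 CPM with MSA2+IPI-549, 1816 to 2064 CPM with MSA2 and 142 to 182 CPM in Control. T cell markers summed to between 9.58 and 11.1 CPM with MSA2+IPI-549, 1152 to 1479 CPM with MSA2 and 14.4 to 41.5 CPM in Control, and NK cell markers to between 7.88 and 12.1, 394 to 469 and 15.9 to 22.4 CPM in the same groups. No marker of these lists was at 0 in an MSA2 library, while the neutrophil gene Elane was at 0 in every MSA2+IPI-549 and Control library and Cd3e in every MSA2+IPI-549 library. Of the 13 dendritic cell markers, 9 rose and 1 fell with MSA2. This list includes the class II gene H2-Ab1, which B cells also express. Its sum was lower with MSA2, at 3318 to 4107 CPM, against 6250 to 6794 CPM with MSA2+IPI-549 and 6059 to 6264 CPM in Control. The part of these markers and their cells in the higher level of the 8 genes was not tested.

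**Figure D4:**
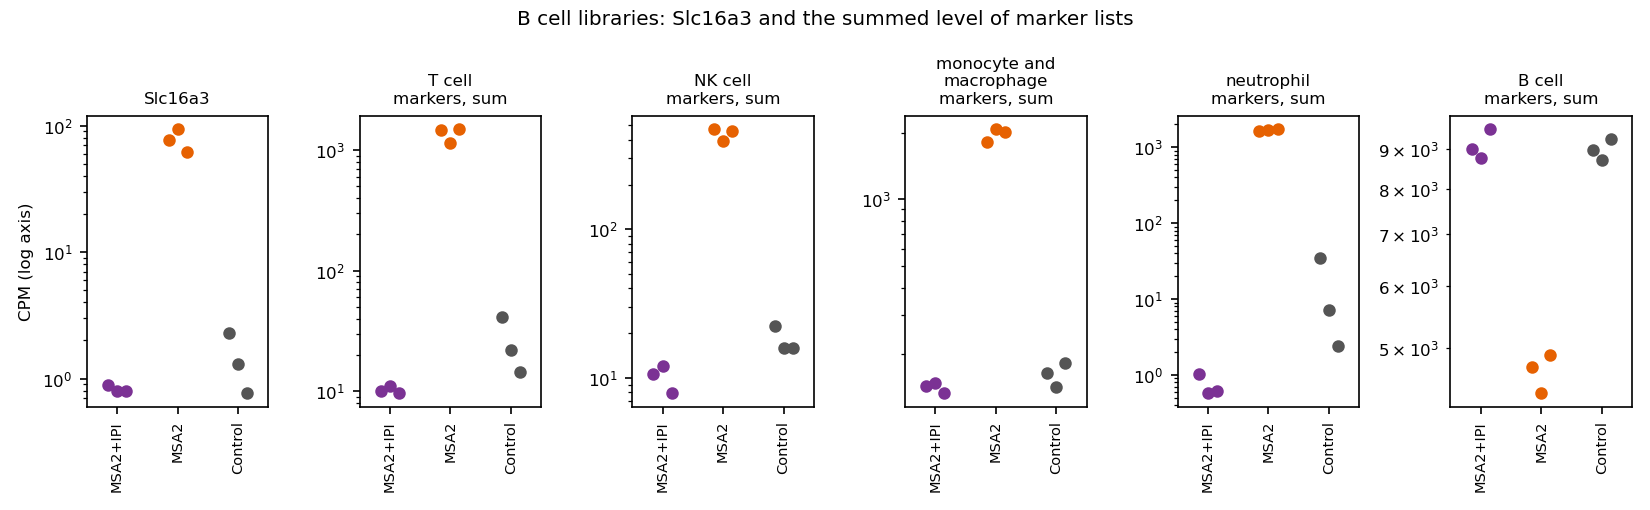
Slc16a3 and the summed CPM of 5 marker lists in each B cell library, on log axes, with MSA2+IPI-549 at the left, MSA2 in the middle and Control at the right of each panel. Slc16a3 and the T cell, NK cell, monocyte and neutrophil sums are highest in the 3 MSA2 libraries, and the B cell marker sum is lowest there.

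Both hexokinase genes of the set rose in B cells with MSA2. Hk1 had 93.3, 95.2 and 94.8 CPM with MSA2, against 55.8, 58.9 and 66.7 CPM in Control (log2 fold change 0.64, 95% interval 0.46 to 0.82, adjusted p = 6.84e-05). The MSA2 values were tight and clear of Control. Hk2 had 20.7, 29.0 and 24.8 CPM with MSA2, against 15.4, 15 and 17.6 CPM in Control (log2 fold change 0.63, adjusted p = 0.00708). Pfkp had a log2 fold change of 0.56 (adjusted p = 0.00371), Pfkfb3 of 0.53 (adjusted p = 0.000164) and Pkm of 0.47 (adjusted p = 0.00299), each with no overlap of the groups, as was so for 28.8% of all genes in this direction. Pkm shares 767 exon bases with Gm49759, a tentative transcript on its strand, which held at most 1448 counts, while Pkm held at least 16336 in every library. Hif1a had 221, 191 and 200.4 CPM with MSA2, against 158, 154 and 156 CPM in Control (log2 fold change 0.39, 95% interval 0.22 to 0.55, adjusted p = 0.00138).

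Ldha was at the edge of the threshold in B cells. It had 324, 273 and 382 CPM with MSA2, against 244, 257 and 290.0 CPM in Control, so that 1 MSA2 library lay below the highest Control library. Its log2 fold change was 0.31 (95% interval 0.05 to 0.56, adjusted p = 0.0497). The call was lost without Control replicate 1 (adjusted p = 0.166), Control replicate 2 (0.144), MSA2 replicate 1 (0.0911), MSA2 replicate 3 (0.167) or any MSA2+IPI-549 replicate (0.0752, 0.0728 and 0.0641), and also with limma-voom (0.0514). Of the 29 other glycolysis and lactate genes tested in B cells, 13 rose and 1 fell with MSA2, where 24.9% of all genes were called higher and 18.5% lower. The largest rises were those of the lactate dehydrogenase B gene Ldhb (5.95), the red-cell and liver pyruvate kinase gene Pklr (4.94), the transporter partner gene Emb (4.42) and the myeloid hexokinase gene Hk3 (3.98). Aldoc fell by 0.72 on the log2 scale. Pklr is a gene of erythroid cells and Hk3 of myeloid cells, and the markers of both rose in the same libraries.

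With MSA2+IPI-549, 0 of the 10 genes passed the test against Control in B cells, where 1.06% of all genes did. At an unadjusted p under 0.05, 1563 of all 16180 genes passed, 3 of the 10 among them, and DESeq2 called 392 genes over the whole table. Pfkfb3 had 38.4, 39.7 and 41.4 CPM with MSA2+IPI-549, against 33.3, 31.9 and 36.0 CPM in Control. The groups did not overlap, and the log2 fold change of 0.24 (95% interval 0.07 to 0.41) had an adjusted p of 0.264. Slc2a1 had 145, 155 and 207 CPM with MSA2+IPI-549, against 131, 130.2 and 135 CPM in Control, again without overlap (log2 fold change 0.36, 95% interval 0.06 to 0.66, adjusted p = 0.402). Groups failed to overlap in this direction for 7.80% of all genes. Slc16a3 had 0.887, 0.802 and 0.792 CPM with MSA2+IPI-549, from 35 to 41 counts per library, and a log2 fold change of -0.83 against Control (95% interval -1.61 to -0.05, adjusted p = 0.484). The other 7 genes had log2 fold changes between -0.07 and 0.28. None of the 29 other glycolysis and lactate genes passed either.

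Against MSA2 in B cells, Slc2a1 was higher with MSA2+IPI-549 and 7 of the 10 genes were lower, where 14.1% of all genes were called higher and 22.9% lower. This contrast and that of MSA2 with Control share the MSA2 libraries, so opposite signs in them are not independent evidence. Slc16a3 was lower by 6.54 on the log2 scale (log2 fold change -6.54, 95% interval -7.23 to -5.85). Pfkp had a log2 fold change of -0.63, Hk1 of -0.60, Pkm of -0.41, Ldha of -0.34, Hif1a of -0.32 and Pfkfb3 of -0.29. Between these libraries the neutrophil, monocyte and macrophage, T cell and NK cell marker sums given above were also lower with MSA2+IPI-549, and the B cell marker sum was higher. Their part in these calls was not tested. Hk2 did not pass, at -0.35 (95% interval -0.70 to -0.01, adjusted p = 0.102). With the replicate number as a block it passed, at -0.36 (adjusted p = 0.0451), and same-numbered libraries of these groups deviated together. Several of these calls rested on single libraries. Pfkfb3 had an adjusted p of 0.0537 without MSA2+IPI-549 replicate 1. Ldha, at an adjusted p of 0.0375, had 0.0614 without Control replicate 2, 0.0835 without MSA2 replicate 1, 0.136 without MSA2 replicate 3 and 0.122, 0.0869 and 0.0697 without MSA2+IPI-549 replicates 1, 2 and 3.

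The higher Slc2a1 level with MSA2+IPI-549 than with MSA2 had a log2 fold change of 0.38 (95% interval 0.08 to 0.68, adjusted p = 0.0456). Slc2a1 had 145, 155 and 207 CPM with MSA2+IPI-549, against 113, 126 and 150.4 CPM with MSA2, and the groups overlapped. Without MSA2+IPI-549 replicate 3, the highest library, the log2 fold change was 0.21 and the adjusted p was 0.162. The adjusted p was 0.147 without MSA2 replicate 1, 0.0901 without MSA2 replicate 2, and 0.057, 0.0638 and 0.0599 without Control replicates 1, 2 and 3.

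The response to MSA2 was compared between the cell types in a joint fit. It differed for 3 of the 10 genes, all lower in BMDC than in B cells, where 20.7% of all genes differed in this direction and 16.3% in the other. The difference in log2 fold change, BMDC minus B cells, was -5.77 for Slc16a3 (95% interval -6.36 to -5.17), -0.74 for Hk1 (95% interval -0.98 to -0.49) and -0.70 for Pkm (95% interval -0.99 to -0.41). Hk2, Pfkp and Pfkfb3, which rose with MSA2 in both cell types, differed by 0.27 (95% interval -0.19 to 0.74), -0.02 (95% interval -0.35 to 0.32) and 0.27 (95% interval -0.01 to 0.54). The B cell MSA2 libraries, in which the other-cell markers were high, enter each of these differences, and the part of those cells was not tested. For MSA2+IPI-549 against Control, 0 of the 10 genes differed between the cell types, where 3.04% of all genes did. Pfkfb3 came closest, with a difference of 0.51 (95% interval 0.22 to 0.80, adjusted p = 0.0558), and Pfkp differed by 0.50 (95% interval 0.15 to 0.86, adjusted p = 0.137).

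The step that adds IPI-549 to MSA2 differed between the cell types for 4 of the 10 genes, all higher in BMDC, where 15.3% of all genes differed in this direction and 8.83% in the other. The difference was 6.67 for Slc16a3, 0.59 for Hk1, 0.56 for Pkm and 0.52 for Pfkp. In all 4 cases the B cell MSA2 libraries, in which the other-cell markers were high, enter the difference. The Pfkp call was lost without B cell MSA2 replicate 2 (adjusted p = 0.0644), B cell MSA2+IPI-549 replicate 1 (0.0818) or replicate 3 (0.0559), BMDC MSA2 replicate 2 (0.0729) or BMDC MSA2+IPI-549 replicate 1 (0.16).

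Hif1a message and its regulators were counted beside the glycolytic genes. Of the 7 HIF regulators and partners tested in BMDC, 0 rose and 3 fell with MSA2, where 14.6% of all genes were called higher and 13.5% lower. Epas1, which encodes HIF-2α, fell by 0.54 on the log2 scale (adjusted p = 0.0222). Vhl, which encodes the ubiquitin ligase subunit that marks HIF-1α for destruction, fell by 0.52 (adjusted p = 0.000152), and the HIF asparagine hydroxylase gene Hif1an fell by 0.35 (adjusted p = 0.00771). With MSA2+IPI-549 in BMDC, Vhl fell by 0.49 (adjusted p = 0.00106) and no other gene of the list passed. Vhl averaged 65.3 ± 2.17 CPM with MSA2+IPI-549 (SD, n = 2), 64.3 ± 1.89 CPM with MSA2 and 92.0 ± 6.77 CPM in Control BMDC (SD, n = 3 each). In B cells with MSA2, 3 of 8 genes of the list rose and 3 fell, where 24.9% of all genes were called higher and 18.5% lower. Vhl averaged 39.7 ± 2.19 CPM in B cells with MSA2+IPI-549, 31.8 ± 2.11 CPM with MSA2 and 51.7 ± 1.57 CPM in Control B cells (SD, n = 3 each). It was the only gene of the list called in B cells with MSA2+IPI-549, with a log2 fold change of -0.38 against Control (adjusted p = 0.0429).

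Of 13 HIF target genes outside glycolysis tested in BMDC, 3 rose and 3 fell with MSA2, where 14.6% of all genes were called higher and 13.5% lower. In B cells 4 of 12 rose and 2 fell with MSA2, where the shares over all genes were 24.9% and 18.5%. In BMDC with MSA2, P4ha1, a collagen prolyl hydroxylase gene, rose by 0.60 (adjusted p = 3.58e-05). Adm, the adrenomedullin gene, rose in BMDC by 2.5 (adjusted p = 0.0068) from levels that stayed under 1 CPM. Ddit4, which encodes the mTORC1 inhibitor REDD1, fell in BMDC by 2.12 (adjusted p = 2.23e-05), to 1.70 ± 0.293 CPM with MSA2, against 7.53 ± 1.73 CPM in Control (SD, n = 3 each). P4ha2 fell in BMDC by 1.15 (adjusted p = 0.0347). With MSA2+IPI-549 in BMDC, P4ha1 rose by 0.53 and Adm by 2.40 against Control, and Ddit4 fell by 1.85 on the log2 scale.

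For each of the 10 genes, the gene outside them with the nearest pattern was found by the root mean square difference over the 4 log2 fold changes against Control, among 8528 genes. Hk2 was nearest to Dtx3l (0.09), which encodes a ubiquitin ligase, Pfkp to Gfpt1 (0.05), which encodes the entry enzyme of the hexosamine pathway, and Pfkfb3 to Trp53i13 (0.07). Slc16a3 was nearest to C1qc (0.15), a complement subunit gene. Their log2 fold changes in B cells with MSA2 were 5.71 and 5.62, in the libraries where the other-cell markers were high. Candidates needed a mean of at least 5 CPM over all libraries of each cell type, which a single high group can supply. The part of the other cells in this likeness was not tested. Hk1 was nearest to Tbc1d22b, Pkm to Zfp949, Ldha to Gmnn, Hif1a to Acsl4, Aldoa to Fbxl19 and Slc2a1 to Dhx9, each at 0.02 to 0.05. Among the 10 genes themselves, Hk1 and Pkm lay 0.11 apart and Hk2 and Pfkfb3 0.14 apart, while Slc16a3 was 2.57 from its nearest neighbour, Hk1. The measure is a description over 17 libraries, whose comparisons share their Control libraries.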

How the data were processed

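RNA-seq libraries were read from 1 count table per cell type. The deposited values are expected counts per gene, made by the authors with cutadapt 4.8, STAR 2.7.8a and RSEM 1.3.3 against GRCm38, per the submitters' processing notes; the order and settings of these steps and the strand setting are not given in the sources used here. All deposited expected counts were already whole, so rounding changed nothing. Totals were 34760025 to 73166643 counts in BMDC and 41093440 to 51433008 in B cells.

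Genes were filtered with filterByExpr, scaled by TMM and tested with edgeR 4.0.16 (quasi-likelihood F-test, R 4.3.3), over all 3 groups of a cell type, without covariates. P-values were adjusted by the Benjamini-Hochberg method over all genes tested. Differences between cell types came from a joint fit of the 6 groups. SE was taken as the log2 fold change divided by the square root of F. DESeq2 1.42.0 and limma 3.58.1 were alternatives, beside other scaling factors (RLE, upper quartile), an unfiltered table, a filter of 1 CPM in 3 libraries, only the groups compared, and leaving out each library. The procedure was tested on simulated counts.

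Positions and exon lengths are those of GENCODE M21 on GRCm38. The 10 genes and all gene lists were chosen with earlier results of these data known. From each other list, up to 4 called genes with the largest change per comparison were named, with those against the list's majority. Same-numbered libraries deviated together in B cells with MSA2+IPI-549 and MSA2 (correlations of their deviations from the group means 0.291, 0.297 and 0.487), so the fit with the replicate number as a block is given beside a call it changes there. This pairing is read from the data, not the labels. A differently numbered pair of these groups, MSA2+IPI-549 replicate 2 with MSA2 replicate 1, reached 0.248, while the other differently numbered pairs were negative. In the other comparisons not every pair was over 0.1 (in all, 4 of 9 in B cells and 0 of 7 in BMDC), and the numbers were not taken as pairs.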

Additional observations from a re-analysis of the deposited data

Results flagged for a closer look

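The response to MSA2 differed between BMDC and B cells by the joint test for 3 of the 10 genes, all lower in BMDC. Over all genes, 20.7% differed in this direction and 16.3% in the other. The difference in log2 fold change, BMDC minus B cells, was -5.77 for Slc16a3, -0.74 for Hk1 and -0.70 for Pkm. The step that adds IPI-549 to MSA2 differed for 4 genes, by 6.67 for Slc16a3, 0.59 for Hk1, 0.56 for Pkm and 0.52 for Pfkp. These were all higher in BMDC, where 15.3% of all genes differed in this direction and 8.83% in the other. In each of the 7 cases the B cell MSA2 libraries enter the contrast, and these libraries had other-cell marker sums above those of every other B cell library; their part in the differences was not tested.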

How the results depend on the processing

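Of the calls among the 10 genes, those lost on leaving out a library are named with the results above, and none turned its sign under any alternative. Other settings ended the Ldha call in B cells with MSA2 against Control (adjusted p = 0.0545 with no filter, 0.0591 with upper quartile factors, 0.0514 with limma-voom, 0.0872 with only the groups compared) and, with only the groups compared, those of Ldha (0.0609) and Slc2a1 (0.0884) in B cells with MSA2+IPI-549 against MSA2. Uncalled values gained a call in 12 fits under other settings and in 13 that left out a library, most often for Pfkfb3 in the MSA2+IPI-549 response between cell types. Over all genes, B cells with MSA2+IPI-549 against Control had 171 calls, against 359 with no filter, 392 with DESeq2, 260 with the replicate block and 91 to 220 on leaving out a library. BMDC with MSA2+IPI-549 against MSA2 had 0 calls, against 561 with no filter, 156 with DESeq2, 3 with limma-voom, 13 with only the groups compared and 0 to 99 on leaving out a library; Hk2 was the 1 gene of the 10 called, with no filter. The MSA2+IPI-549 response differed between cell types for 539 genes, against 818 with no filter, 892 with DESeq2 and 246 to 654 on leaving out a library; of the 10 genes it differed for 0, against 3 with no filter, 1 with the stricter filter, 1 with DESeq2 and 0 to 1 on leaving out a library. BMDC with MSA2+IPI-549 against Control had 1883 calls over all genes, and 843 to 2177 on leaving out a library, with the lowest count without MSA2+IPI-549 replicate 1. Values near 0 changed sign without a call. Pfkfb3 in Control BMDC against B cells was -0.020 with RLE factors and with DESeq2, -0.10 with upper quartile factors and -0.056 with the stricter filter; in BMDC with MSA2+IPI-549 against MSA2 it was 0.016 with upper quartile factors. Slc2a1 in B cells with MSA2 against Control was 0.0017 with the stricter filter. With the replicate block, in BMDC with MSA2+IPI-549 against Control, Slc2a1 was 0.015 and Hif1a 0.010, and Hk2 in B cells with MSA2+IPI-549 against MSA2 gained a call (adjusted p = 0.0451); the block, fitted within each cell type, changed no other call among the 10 genes. Leaving out a library changed the sign of 22 uncalled log2 values, which ranged as follows. In B cells with MSA2 against Control, Slc2a1 ranged from -0.14 to 0.071 and Aldoa from -0.054 to 0.10. In B cells with MSA2+IPI-549 against Control, Hk1 ranged from -0.018 to 0.11, Pfkp from -0.15 to 0.016, Pkm from -0.011 to 0.14 and Ldha from -0.087 to 0.040. In BMDC with MSA2 against Control, Slc2a1 ranged from -0.18 to 0.057 and Ldha from -0.098 to 0.0093. In BMDC with MSA2+IPI-549 against Control, Slc2a1 ranged from -0.13 to 0.10, Pkm from -0.099 to 0.0087, Slc16a3 from -0.013 to 0.20 and Hif1a from -0.084 to 0.068. Against MSA2, Hk1 ranged from -0.021 to 0.099, Pfkp from -0.16 to 0.0078 and Pfkfb3 from -0.078 to 0.10. Between cell types, the MSA2 response ranged from -0.15 to 0.089 for Slc2a1 and -0.11 to 0.12 for Pfkp, the MSA2+IPI-549 response from -0.099 to 0.037 for Aldoa, the step adding IPI-549 from -0.17 to 0.15 for Hk2, -0.0093 to 0.16 for Aldoa and -0.037 to 0.13 for Hif1a, and Control from -0.062 to 0.062 for Pfkfb3. The cause of these changes was not tested. Slc16a3 in B cells with MSA2+IPI-549 and in Control rests on 34 to 115 counts per library.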
